A study of Mus musculus with 8 samples.

Results

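The comparison described here was of C3H10T1/2 cells given wild type IhhN (WT group) with cells given E95K mutant IhhN (MT group). Its members were chosen by the induction label alone and comprised 6 of the 8 arrays of the series, 4 WT arrays from 2 RNA samples and 2 MT arrays from 2 RNA samples, and so 4 of 6 RNA samples in all. C3H10T1/2 is a mouse mesenchymal cell line that can be led into cartilage, bone and fat lineages. Cells of both groups stood for 48 h with 750 nM of the protein, and the remaining 2 arrays were of cells with no induction (control group). The methods describe both proteins as recombinant human N-terminal IHH made in E. coli and added to the growth medium, so the cells were exposed to a supplied protein and carried no E95K allele of their own. The array measured miRNAs only, and no mRNA target of the hedgehog pathway was read in these samples. The labels number the RNA samples of a group without saying whether they came from separate cultures, so each p-value measures only the spread between these samples, which may be technical.

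Indian hedgehog is secreted by prehypertrophic chondrocytes and sets the pace of growth plate cartilage. Its N-terminal signalling domain, IhhN, binds the receptor Ptch1, which releases Smo and leads to activation of the Gli transcription factors. The E95K change in IHH is a cause of brachydactyly type A1, in which the middle phalanges are short or absent. A miRNA is a short RNA that lowers the output of mRNAs that pair with its seed, the stretch near its 5′ end, so miRNAs that share a seed can share targets. The question of the comparison was how alike the wild type and the mutant protein left the miRNAs of these cells, and how large a difference these arrays could have shown.

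The sequences of the miRNAs on which the results below turn are given here, with the seed, bases 2 to 8, in capitals. They are mature sequences from RefSeq (GRCm38.p6), in which 118 of the 142 miRNAs tested were found under the same name. The 3 miRNAs with the smallest p included miR-1892 (chr12:54645943-54645964, minus strand, within the span of Sptssa) and miR-322-3p (chrX:53054269-53054289, minus strand), and the third was miR-669f-3p. The miRNA with the widest interval was miR-188-5p (chrX:7248031-7248051, minus strand, within the span of Clcn5), followed by miR-210-3p (chr7:141221407-141221428, minus strand).
miR-1892: aUUUGGGGacgggagggaggau
miR-322-3p: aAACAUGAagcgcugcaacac
miR-188-5p: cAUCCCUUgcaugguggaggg
miR-210-3p: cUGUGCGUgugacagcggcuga
For the let-7 family, the largest of the shared seed groups, let-7c-5p and miR-98-5p are shown because they carry the same seed and differ at 2 of 22 bases, and miR-98-5p had the largest difference of the family. The miR-30 members miR-30a-5p and miR-30c-5p are shown because all 5 tested members of that family were higher in WT by the mean.
let-7c-5p: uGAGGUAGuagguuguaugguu
miR-98-5p: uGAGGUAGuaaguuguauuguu
miR-30a-5p: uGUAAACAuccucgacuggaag
miR-30c-5p: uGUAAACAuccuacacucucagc
The skeletal miRNAs miR-140-3p (chr8:107551288-107551308, plus strand, within the span of Wwp2), miR-455-3p (chr4:63256904-63256924, plus strand, within the span of Col27a1) and miR-214-3p (chr1:162223438-162223459, plus strand, within the span of Dnm3) are shown because hedgehog signalling acts on cartilage. miR-15b-5p and miR-322-5p are shown because they lie on different chromosomes, 3 and X, and share a seed.
miR-140-3p: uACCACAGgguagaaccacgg
miR-455-3p: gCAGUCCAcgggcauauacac
miR-214-3p: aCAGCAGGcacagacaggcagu
miR-15b-5p: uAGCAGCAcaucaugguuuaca
miR-322-5p: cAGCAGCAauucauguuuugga

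The array carried 611 mouse miRNAs, with 449 of them detected nowhere and 103 on all 8 arrays, where a miRNA was taken as detected when over 50% of the spots of one of its probes were well above background. The 142 miRNAs detected on every array of at least 1 group were tested, and 103 of them were detected on all 6 WT and MT arrays. All 142 were detected on both control arrays, against 104 on all 4 WT arrays and 106 on both MT arrays. The control group, which is outside the comparison, thus decided which miRNAs were tested. Some miRNAs detected in the compared groups were left out: the array of MT replicate 2 detected 143, of which 134 were tested. All arrays lay on 1 slide, with the WT arrays in row 1 and the MT arrays in row 2, so slide row and protein cannot be told apart. Of the mesenchymal and fibroblast markers on the array 10 of 16 were detected on all 8 arrays and 3 on none, whereas no marker miRNA of muscle, blood, liver, epithelium or endothelium was detected on any array. Of the neural markers miR-128-3p alone, and of the pluripotent markers miR-290-3p alone, was detected on some arrays. The summed level of the mesenchymal markers lay between 13.03 and 13.28 on the log2 scale in the WT samples and between 13.14 and 13.30 in the MT samples, which overlapped. The first array of WT replicate 1 and the array of MT replicate 1, both in column 1 of the slide, had the widest negative control spots (SDs of 6.63 and 5.61 units, where the other 6 arrays had 2.91 to 3.76) and detected the fewest miRNAs, 104 and 106.

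No miRNA passed the test of a difference between the WT and MT groups. By limma, with Benjamini-Hochberg adjustment, 0 of 142 miRNAs passed an adjusted p of 0.05 (0%), 0 had an unadjusted p under 0.05, and the smallest adjusted p was 0.99. No difference exceeded 2-fold, and 1, that of miR-188-5p, exceeded 1.5-fold. The median size of the difference, without sign, was 0.11 on the log2 scale (1.08-fold), and the 90th percentile of that size was 0.30 (1.23-fold). The differences, given throughout as WT minus MT on the log2 scale, ranged from -0.9998 to 0.40 with a median of -0.04. In these bulk RNA samples fewer cells that make a miRNA and less of it per cell cannot be told apart.

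**Figure D1:**
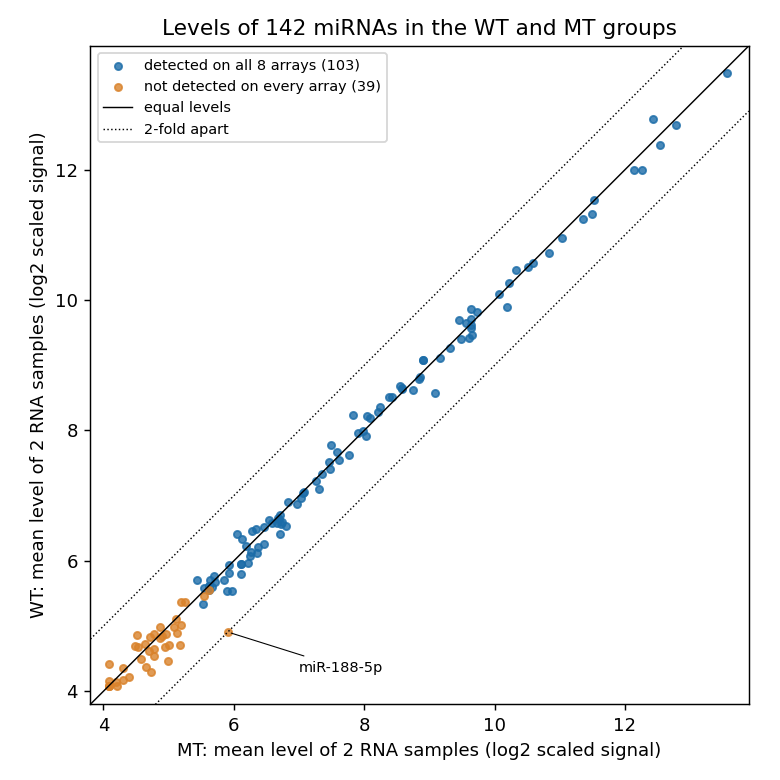
Mean level of each of the 142 miRNAs tested in the MT group (x axis) and the WT group (y axis), both as log2 of the scaled signal, 2 RNA samples per group. The points follow the line of equal levels, and miR-188-5p alone comes near the dotted line that marks a 2-fold difference.

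Across the 142 miRNAs the WT and MT means correlated with Pearson's r of 0.996 and Spearman's rho of 0.993. This is a description across miRNAs, which are not independent replicates and differ in level by far more than any group difference. A closer view is given by pairs of RNA samples. A WT and an MT sample differed by a median size of 0.11 (WT replicate 1 and MT replicate 2), 0.16 (WT replicate 2 and MT replicate 2), 0.18 (WT replicate 1 and MT replicate 1) and 0.24 (WT replicate 2 and MT replicate 1). The 2 WT samples differed from each other by 0.18, the 2 MT samples by 0.18 and the 2 control samples by 0.20. Each WT sample thus lay nearer to MT replicate 2 than to the other WT sample. The same measure was 0.26 to 0.41 between WT and control samples and 0.34 to 0.46 between MT and control samples, both above every value between WT and MT samples. WT replicate 2, in slide columns 3 and 4 with the controls, lay at 0.26 and 0.28 from them. WT replicate 1, in columns 1 and 2 with the MT samples, lay at 0.40 and 0.41 from the controls. Between MT and control samples slide column and induction cannot be told apart. The 2 arrays of 1 WT RNA sample differed by 0.10 for replicate 1 and 0.08 for replicate 2. Each WT sample was a mean of 2 arrays, whereas each MT and control sample was a single array, so the pairs carry unlike technical spread.

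**Figure D2:**
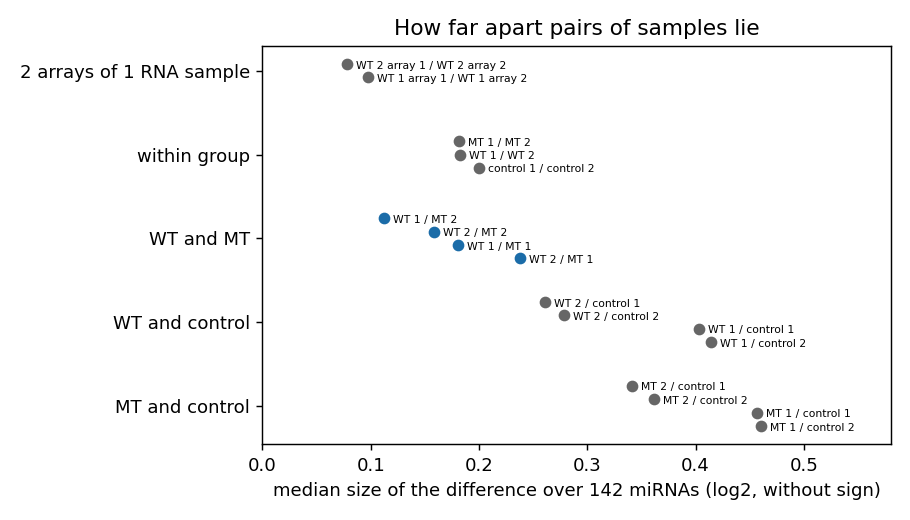
Median size of the difference over 142 miRNAs (x axis, log2, without sign) for each pair of RNA samples and for the 2 arrays of each WT RNA sample, by kind of pair (y axis). The 4 pairs of a WT and an MT sample (blue) lie between 0.11 and 0.24, around the pairs within a group at 0.18 to 0.20, and below all pairs with a control sample.

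The WT and MT samples did not overlap for 37 of the 142 miRNAs (26.1%), 12 of them higher in WT (8.45%) and 25 higher in MT (17.6%). By the mean, 53 miRNAs (37.3%) were higher in WT, 86 were higher in MT and 3 were at the floor in all WT and MT samples. This split depended on the scaling of the arrays. With each array scaled to the 75th percentile of all mouse probes in place of the 174 probes detected on all arrays, 92.3% of the miRNAs were higher in WT and the median difference moved to 0.30. After quantile normalization 57.7% were higher in WT, with the total gene signal 56% and with normexp background correction 66.2%. The 75th percentile of all mouse probes lay at 3.70 to 8.05 signal units, below the lowest signal of any detected probe, which was 14.0 to 38.4 units by array. Of the 86 miRNAs higher in MT by the mean 77 lay above 0 when scaled over all mouse probes, 1 lay at 0 and 8 stayed below, and 5 kept their sign under all 5 other scalings. Of the 53 higher in WT none turned when scaled over all mouse probes, and 42 kept their sign under all 5. Scaling over all mouse probes divides each array by a single factor, so away from the floor all differences moved toward WT by the same amount. For example, let-7a-5p went from -0.16 to 0.20 and let-7g-5p from 0.10 to 0.45. A difference toward WT could thus not turn under it, and a small one toward MT had to. The counts that turned under it follow from that shift. Each direction of a single miRNA given below is that of the scaling over 174 probes, and most of those toward MT turn when scaled over all mouse probes.

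The size of difference that could have been shown was set by 2 RNA samples per group, which left 3 residual degrees of freedom over the 3 groups. To these limma added 3.89 prior degrees of freedom from the spread pooled over miRNAs, for 6.89 in total. The intervals thus rest on that pooling and on the spread between control samples as well. The 95% interval of WT minus MT reached a median of 0.43 to either side of the estimate (1.35-fold), from 0.33 to 1.80 across the miRNAs. The lowest was that of miR-22-5p, which lay at the floor in all WT and MT samples, so it is not a size that the arrays resolved. miR-92a-3p, detected on all arrays, reached 0.34. For 130 of 142 miRNAs (91.5%) the whole interval lay within 2-fold, and for 85 (59.9%) it lay within 1.5-fold. Among the 103 miRNAs detected on all arrays 97 had an interval within 2-fold. Among the other 39 it was 33, but some of those levels lay at the floor, where there is no spread to measure. To pass as a lone call after adjustment over 142 miRNAs, a difference had to exceed a median of 1.18 (2.27-fold), at least 0.91 and at most 4.95. The value of 0.91 was again that of miR-22-5p at the floor, and for miR-92a-3p it was 0.92. Intervals widened in this way for all 142 comparisons lay within 4-fold for 126 miRNAs and within 2-fold for 4. An estimate of 2-fold would have had an unadjusted p under 0.05 for 138 miRNAs, and would have passed the adjusted threshold as a lone call for 18.

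**Figure D3:**
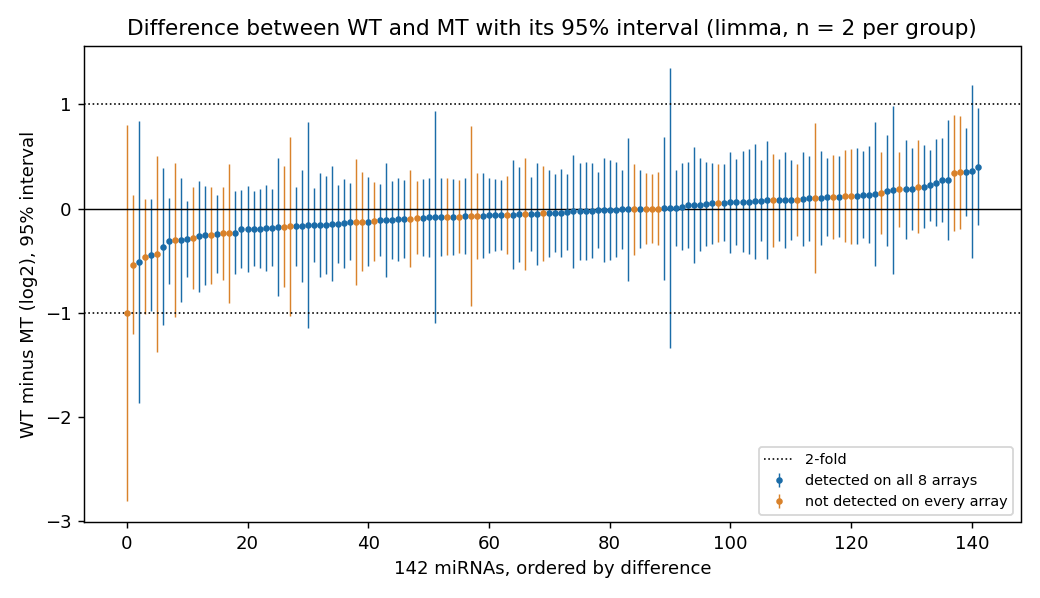
Difference WT minus MT on the log2 scale (y axis) with its 95% interval from limma (bars), for 142 miRNAs in order of the difference (x axis), 2 RNA samples per group. Every interval includes 0, and 130 lie wholly between the dotted 2-fold lines.

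These bounds rest on the scaling as well. Scaled over all mouse probes the median half-width was 0.94 and 26 intervals lay within 2-fold, and with the total gene signal, where 166 miRNAs were tested, the median half-width was 0.82. With normexp background correction all 142 intervals lay within 2-fold. That correction was run with an offset of 50 signal units, above the lowest detected signal of every array. Such an offset draws low levels together, and the difference of miR-680 went from -0.54 to -0.05. The narrower intervals under normexp thus do not show better precision. The median half-width varied little with signal: it was 0.41 for the 47 miRNAs of highest signal, 0.45 for the 47 in the middle and 0.45 for the 48 of lowest signal. Intervals within 1.5-fold numbered 34, 27 and 24 in that order. Of the 48 of lowest signal 10 were detected on all arrays, and levels at the floor have no spread, so their width does not measure precision alone.

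For 12 miRNAs the interval reached beyond 2-fold on a side, which depends on the size of the difference as well as on the width. miR-1892, with a half-width of 0.55, was among them, whereas miR-322-5p, with a half-width of 0.81, was not. Widest was miR-188-5p, at 4.90 and 4.92 in the WT samples and 7.24 and 4.57 in the MT samples. MT replicate 1 was far above all other samples, MT replicate 2 was the lowest of the 4, and the groups overlapped. Its difference of -0.9998 (standard error 0.76, adjusted p = 0.99) was the largest of all. The miRNA has 4 probes on the array, of which the first, with the highest mean signal, stood for it. The other 3 probes had differences of 0.01, 0.11 and -0.02 and lay at 4.88, 4.97 and 5.33 in MT replicate 1. Of the 5 spots of the first probe on that array 2 exceeded 100 signal units, with a highest value of 411, whereas the median spot was at 26.8 units and the highest spot of that probe on the other 7 arrays was at 51.5 units. With the mean of all probes the difference was -0.22. Without MT replicate 1 it was 0.33, in the opposite direction. Without MT replicate 2 it was -2.33, with an adjusted p of 0.000178 in limma's test, the single call under any alternative, and its adjusted p lay between 0.865 and 1 under the others.

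**Figure D4:**
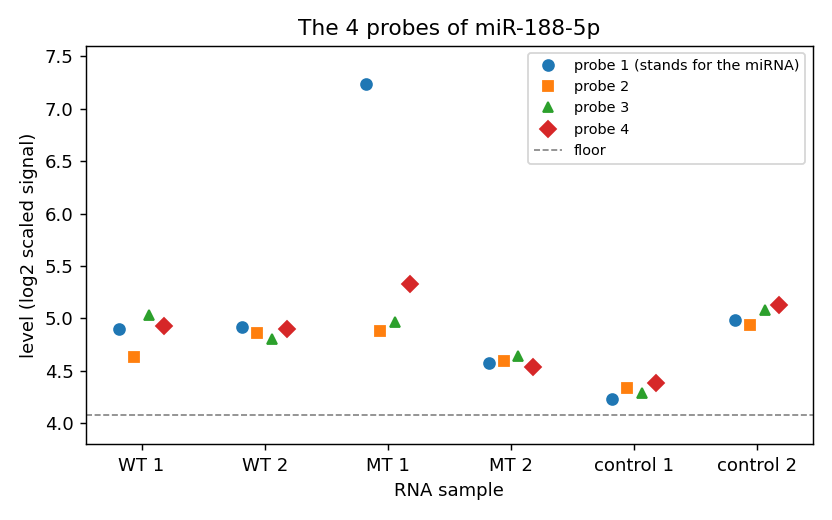
Level (y axis, log2 scaled signal) of the 4 probes of miR-188-5p in each RNA sample (x axis), with the floor as a dashed line. Probe 1 reaches 7.24 in MT replicate 1, where the other 3 probes lie between 4.88 and 5.33, and in the remaining samples the 4 probes lie close together.

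The next widest intervals, those of miR-210-3p and miR-503-5p, had other patterns. miR-210-3p, which rises in hypoxic cells, was at 9.0 and 8.15 in the WT samples, 9.07 and 9.12 in the MT samples and 9.03 and 7.16 in the control samples. WT replicate 2 and control replicate 2 were the low samples, and the WT and MT samples did not overlap. Its difference was -0.51 with an interval from -1.86 to 0.84, and its second probe gave -0.53. miR-503-5p, a member of the X-linked miR-322 cluster that slows the cell cycle, was at 5.47 and 6.39 in the WT samples and 6.55 and 5.31 in the MT samples. Each group held a high and a low sample, so that the difference was 0.01 with an interval from -1.34 to 1.35. Of the remaining 9 miRNAs, miR-720, whose reads come from a tRNA and which is no longer counted among the miRNAs, had an interval from -0.47 to 1.18. The other 8, some of wider interval than miR-720, were miR-224-5p, miR-680, miR-1892, miR-450b-3p, miR-487b-3p, miR-19b-3p, miR-1895 and miR-1224-5p.

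The 3 miRNAs with the smallest p did not pass the test, each with an adjusted p of 0.99 in limma's test. miR-1892 was at 4.54 and 4.89 in the WT samples and 5.12 and 5.23 in the MT samples, a difference of -0.46 (interval -1.02 to 0.09). The samples did not overlap, but 2 of 4 WT arrays and 1 of 2 MT arrays detected it, and its other probe gave -0.26. miR-322-3p was at 6.25 and 6.56 in WT and 6.09 and 6.02 in MT, a difference of 0.35 (interval -0.07 to 0.78). It was detected on all arrays by 1 of its 4 probes, and both WT samples lay above both MT samples. miR-669f-3p, one of a large miRNA cluster in an intron of Sfmbt2, was at 5.53 in both WT samples and at 6.25 and 5.70 in the MT samples, a difference of -0.45 (interval -0.99 to 0.10). These 3 kept their direction in all 71 values from the alternatives, the 5 other scalings included, and passed the adjusted threshold in none. Many of these directions could not have turned. Most changes to the fit, and those of the filter, leave the difference as it was. Scaling over all mouse probes could not turn the difference of miR-322-3p, which was higher in WT. Leaving out a replicate cannot turn samples that do not overlap, as in all 3. The sizes of the 3 differences did not hold: over the 5 other scalings the difference ranged from -1.37 to -0.03 for miR-1892, from 0.11 to 0.71 for miR-322-3p and from -0.59 to -0.09 for miR-669f-3p.

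Probes and hairpin arms gave a further view of the same differences. For 70 miRNAs with at least 2 probes detected on all arrays, the difference varied between probes of 1 miRNA by a median of 0.04 and at most 0.17, and for 61 of them all probes lay on 1 side of 0. The probes share the RNA and the arrays and so do not replicate the groups. For 11 hairpins both arms were tested. The 5p and 3p arms differed by a median size of 0.19 in their WT minus MT value, and 8 of 11 pairs lay on 1 side of 0. Among them were both arms of miR-322 (0.18 and 0.35), miR-214 (-0.10 and -0.29) and miR-34b (-0.06 and -0.09), whereas the arms of miR-140 lay at 0.06 and -0.03.

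By family, counts of calls could not differ, since 0 of the 142 miRNAs passed, so only the sizes and intervals are compared. The families and clusters written for these cells, 27 with a tested member, covered 91 of the 142 miRNAs. In 23 of the 27 every member's interval lay within 2-fold, and 21 had a median within 0.15 of the median of all miRNAs. The exceptions to the first were the miR-17 to miR-92a, miR-322, miR-188 and Dlk1-Dio3 clusters, each through 1 or 2 of the miRNAs of wide interval named above. Family medians ran from -0.55, in the miR-188 cluster, of which miR-188-5p and miR-500-3p were the members tested, to 0.13 in the miR-322 cluster. Under 5 other scalings 12 of the 27 family medians kept their sign throughout, and 18 did so relative to the median of all miRNAs. Away from the floor, a median above 0 could not have turned when scaled over all mouse probes.

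**Figure D5:**
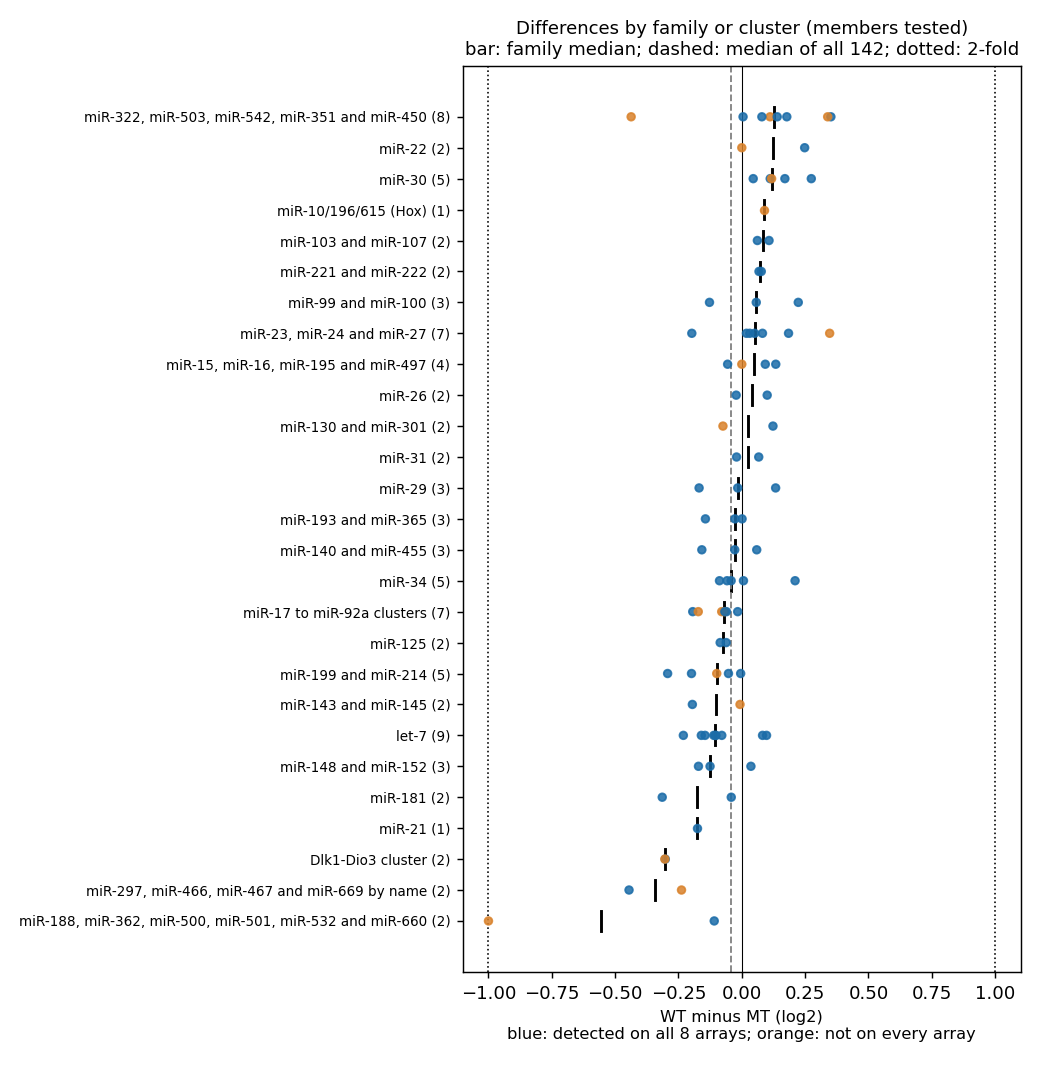
Difference WT minus MT on the log2 scale (x axis) of each tested member of 27 families and clusters (y axis, with the number tested), from 2 RNA samples per group. Black bars are family medians, the dashed line is the median of all 142 miRNAs at -0.04 and dotted lines mark 2-fold, which no member passes.

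let-7 miRNAs restrain growth genes such as Ras and Hmga2 and build up as cells differentiate. All 9 tested members were detected on all arrays and had an interval within 2-fold. Their differences ran from -0.23 (miR-98-5p) to 0.10 (let-7g-5p) with a median of -0.10, or -0.06 relative to all miRNAs. The median turned above 0 when scaled over all mouse probes and came to 0 after quantile normalization. Relative to all miRNAs it stayed below 0 under all 5 other scalings. let-7c-5p was at 12.72 and 12.64 in the WT samples and 12.93 and 12.64 in the MT samples, and the groups overlapped. miR-98-5p was at 6.06 and 6.19 in WT and 6.48 and 6.23 in MT, with both WT samples below both MT samples, and its difference was 0.13 when scaled over all mouse probes. Of the 9 members 5 did not overlap between the groups, all of them higher in MT. This compares with 26.1% of all miRNAs in either direction and 17.6% toward MT. All 5 lay above 0 when scaled over all mouse probes. Members of the family differ from each other by 1 to 6 of 22 bases, so probes may share some signal between them.

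The miR-17 to miR-92a cluster and its related clusters promote proliferation, and hemizygous loss of the human miR-17 to miR-92a locus shortens the digits. Of the members tested, miR-93-5p, miR-106b-5p and miR-25-3p lie elsewhere, on chromosome 5 within the span of Mcm7, and miR-20b-5p on the X chromosome. Of the 7 tested members of all these clusters 7 were higher in MT by the mean, with a median of -0.07, or -0.03 relative to all miRNAs. The median turned above 0 when scaled over all mouse probes, with the total gene signal and with normexp. The largest difference was that of miR-93-5p, at 7.12 and 7.10 in the WT samples and 7.42 and 7.18 in the MT samples (-0.19, interval -0.57 to 0.19), which was 0.16 when scaled over all mouse probes. miR-92a-3p had an interval of -0.40 to 0.28, among the narrowest of all. For miR-19b-3p, at 4.45 and 5.59 in WT and 4.98 and 5.40 in MT, the samples overlapped and the interval reached -1.03.

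The cell cycle brakes of the miR-15 and miR-16 family lay the other way, with a median of 0.05 over 4 tested members, of which miR-195-5p was at the floor in all WT and MT samples. Every interval lay within 2-fold, and the sign of the median held under the 5 other scalings, of which that over all mouse probes could not have turned it. miR-16-5p was at 8.61 and 8.76 in WT and 8.33 and 8.77 in MT, and miR-15b-5p was at 9.27 and 8.96 in WT and 9.21 and 9.13 in MT. Both overlapped between the groups. miR-322-5p, which shares their seed from a cluster on the X chromosome, was at 8.63 and 9.52 in WT and 8.87 and 8.93 in MT (0.18, interval -0.63 to 0.98), with the 2 WT samples on either side of the MT samples. In the miR-322 cluster 7 of 8 tested members were higher in WT, with a median of 0.13 that turned below 0 with the total gene signal.

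In the miR-30 family all 5 tested members were higher in WT by the mean, as were both members of the miR-103 and miR-107 and the miR-221 and miR-222 pairs. Of the 5, 2 were without overlap, against 26.1% of all miRNAs in either direction and 8.45% toward WT. Among all 53 miRNAs higher in WT by the mean, 12 were without overlap. The 5 had a median of 0.12, or 0.16 above all miRNAs, and 0.09 to 0.19 above under the other scalings. miR-30c-5p, which targets the bone and cartilage factor Runx2, was at 7.81 and 7.74 in WT and 7.34 and 7.66 in MT (0.27, interval -0.13 to 0.68). Both WT samples lay above both MT samples. miR-30a-5p was at 8.35 and 8.36 in WT and 8.15 and 8.33 in MT (0.11, interval -0.28 to 0.50). The highest of the 5 upper limits was 0.70, so 2-fold lay outside the interval of every member.

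miR-199a and miR-214, transcribed together and needed for normal skeletal growth, leaned to MT. All 5 tested members were lower in WT by the mean, with a median of -0.10, or -0.06 relative to all miRNAs, and the family lay above 0 when scaled over all mouse probes. miR-214-3p, which lowers the hedgehog inhibitor Sufu in zebrafish, was at 9.96 and 9.83 in WT and 10.24 and 10.14 in MT. The samples did not overlap, and its difference of -0.29 (interval -0.66 to 0.07) was 0.06 when scaled over all mouse probes and between -0.29 and -0.20 under the other 4 scalings. miR-199a-5p was at 9.57 and 9.35 in WT and 9.73 and 9.59 in MT (-0.20, interval -0.57 to 0.18), also without overlap, and was at 0.16 when scaled over all mouse probes. miR-199a-3p, from the other arm of its hairpin, overlapped between the groups at 10.39 and 10.63 against 10.51 and 10.51.

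The cartilage miRNAs miR-140 and miR-455 lay close to 0. miR-140, whose host gene is Wwp2 and whose loss shortens bones in mice, was measured on both arms. miR-140-5p was at 7.82 and 8.11 in WT and 7.82 and 7.99 in MT (0.06, interval -0.43 to 0.54), and miR-140-3p was at 10.68 and 10.45 in WT and 10.50 and 10.68 in MT (-0.03, interval -0.57 to 0.51). miR-455-3p was at 5.90 and 6.0 in WT and 6.37 and 5.84 in MT (-0.16, interval -0.66 to 0.34). All 3 overlapped between the groups and had an interval within 2-fold. Their median of -0.03 turned above 0 when scaled over all mouse probes and with the total gene signal.

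Families with roles in the matrix and in growth control had medians near 0 as well. The miR-29 family, which lowers collagens, had a median of -0.02 over 3 members that turned under 4 of 5 scalings, and miR-29b-3p overlapped at 5.90 and 6.52 in WT and 6.42 and 6.33 in MT. The miR-34 family, induced by p53, had a median of -0.04 over 5 members that turned above 0 when scaled over all mouse probes, after quantile normalization and with normexp. Of these, miR-34a-5p was at 8.78 and 8.81 in WT and 8.97 and 8.71 in MT. miR-21-5p, a growth-promoting miRNA abundant in fibroblasts, was at 10.95 and 11.69 in WT and 11.26 and 11.73 in MT (-0.18, interval -0.84 to 0.48), and its difference was 0.18 when scaled over all mouse probes. The replicates of each group differed more than the group means.

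The miR-23, miR-24 and miR-27 clusters had 6 of 7 tested members higher in WT and a median of 0.05 that held its sign under the 5 scalings. Scaling over all mouse probes could not have turned that median. miR-23a-3p overlapped at 11.58 and 11.49 in WT and 11.43 and 11.61 in MT (0.02, interval -0.40 to 0.44). The largest difference was that of miR-24-1-5p (0.35, interval -0.20 to 0.89), which was detected on 2 of 4 WT and 1 of 2 MT arrays. The miR-221 and miR-222 pair, which lowers the cell cycle inhibitor p27, had differences of 0.08 and 0.07, and the miR-103 and miR-107 pair, from introns of the Pank genes, had 0.06 and 0.11. Both pairs overlapped between the groups and lay within 2-fold in every interval.

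Other mesenchymal and metabolic families were measured by fewer members. miR-143-3p, from a cluster known for its part in smooth muscle, was at 6.33 and 6.20 in WT and 6.45 and 6.46 in MT (-0.20, interval -0.55 to 0.16), without overlap. Its difference was 0.16 when scaled over all mouse probes, and the median of miR-143 and miR-145 turned above 0 under 3 of the 5 scalings. miR-22-3p was at 9.62 and 9.77 in WT and 9.28 and 9.62 in MT (0.25, interval -0.17 to 0.67), with the nearest WT and MT samples equal to 2 decimals. miR-148b-3p, one of a family that lowers the DNA methyltransferase Dnmt1, was at 6.62 and 6.50 in WT and 6.84 and 6.63 in MT (-0.17, interval -0.55 to 0.21), but its difference was 0.19 when scaled over all mouse probes and 0.02 with the total gene signal.
The miR-26, miR-130, miR-31 and miR-193 and miR-365 groups had medians from -0.03 to 0.04, and all of their intervals lay within 2-fold. Of the 68 miRNAs on the array that were listed for the Dlk1-Dio3 imprinted cluster 2 were tested, miR-487b-3p and miR-494-3p, both at -0.30. miR-1906 was not on that list but has the first of its 2 loci in the same region of chromosome 12, and lay at -0.13. Of the 36 named miR-297, miR-466, miR-467 or miR-669, most known from the Sfmbt2 intron, 2 were tested, miR-669f-3p at -0.45 and miR-669n, which lies on chromosome 3 within the span of Slc30a7, at -0.24. The medians of both groups turned above 0 when scaled over all mouse probes.

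Among the remaining miRNAs a few had larger differences without passing the test. miR-181a-5p was at 5.93 and 5.67 in WT and 6.25 and 5.99 in MT (-0.31, interval -0.73 to 0.10), without overlap, but its difference was 0.04 when scaled over all mouse probes and 0.02 with the total gene signal. miR-99a-5p was at 9.86 and 9.88 in WT and 9.68 and 9.61 in MT (0.22, interval -0.12 to 0.56), also without overlap. miR-99b-5p, which shares its seed, lay at -0.13 with overlap (0.23 when scaled over all mouse probes), so that the range of 0.35 within this seed was the widest among 19 seeds shared by 2 or more tested miRNAs. These seeds covered 54 miRNAs, and the median range within a seed was 0.21. miR-690, in no family, had the highest difference of all (0.40, interval -0.16 to 0.97) and overlapped at 8.06 and 8.42 in WT and 7.54 and 8.13 in MT.

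Of 3 lists of miRNAs with known roles, none had a member past the adjusted threshold. Of 14 Runx2-targeting miRNAs on the array 5 were tested, with a median of 0.02, and 4 were higher in WT. They comprised miR-30c-5p and miR-23a-3p, given above, miR-34c-3p (0.21, interval -0.18 to 0.60), miR-34c-5p (0.01) and miR-218-5p (-0.04). Of 24 hedgehog and cartilage miRNAs 14 were tested, with a median of -0.08 and 3 higher in WT, and that median turned above 0 under 4 of the 5 scalings. Among them miR-125b-5p and miR-324-5p, which lower Smo, were measured on all arrays. miR-125b-5p was at 13.60 and 13.36 in WT and 13.56 and 13.57 in MT (-0.09, interval -0.47 to 0.30), and miR-324-5p at 6.42 and 6.76 in WT and 7.04 and 6.44 in MT (-0.15, interval -0.70 to 0.41). Both overlapped. All 14 intervals of this list lay within 2-fold, as did all 5 of the Runx2 list.

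Of 7 inflammation miRNAs 3 were tested. miR-146b-5p and miR-146a-5p are raised by NF-kB and damp its signalling. miR-146b-5p was at 8.98 and 9.18 in WT and 8.82 and 8.98 in MT (0.19, interval -0.21 to 0.58), and miR-146a-5p at 4.55 and 4.69 in WT and 4.67 and 4.73 in MT (-0.08, interval -0.43 to 0.27). miR-155-5p, raised in activated immune cells, was at 4.42 and 4.66 in WT and 4.59 and 4.98 in MT (-0.24, interval -0.69 to 0.21). The median of the 3 was -0.08, which turned above 0 when scaled over all mouse probes, after quantile normalization and with normexp, and all 3 intervals lay within 2-fold.

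Detection was also compared between the groups. Of the 142 miRNAs 104 were detected on all 4 WT arrays and 106 on both MT arrays, with 103 in common. miR-145-5p was detected on all 4 WT arrays and 1 of 2 MT arrays, with a difference of -0.01. miR-106b-5p and miR-188-5p were detected on both MT and 3 of 4 WT arrays, and miR-680 on both MT and 2 of 4 WT arrays (-0.54, interval -1.21 to 0.13). On all 6 WT and MT arrays, miR-101a-3p, miR-195-5p, miR-22-5p and miR-7a-5p were not well above background. A further 4, miR-196b-5p, miR-450b-3p, miR-542-3p and miR-877-5p, were well above background on 1 or 2 of the 4 WT arrays and on no MT array, and none of them exceeded 1-fold against the lowest detected signal of the MT arrays, so no fold is given.

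The base composition of the miRNAs moved with the differences. Over the 118 miRNAs with a sequence, WT minus MT had a Pearson's r of -0.30 with the share of G and C in the mature sequence. The same r was 0.33 for WT replicate 1 minus WT replicate 2 and 0.27 for MT replicate 1 minus MT replicate 2, and -0.10 for the 2 control samples. The relation was thus of similar size between samples given the same protein. These are descriptions across miRNAs that share arrays and labelling, and the part of base composition in the differences was not tested.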

How the data were processed

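miRNA levels were measured with 1-colour Agilent arrays. The authors deposited 1 scanner file per array from Feature Extraction, in which the intensity of every spot was background-subtracted and detrended but not normalized between arrays. The file header gives version 10.7.1.1 and the submitters' processing notes give 9.1. A deposited table of the whole series held the same intensity values to within 0.005 signal units and was not used further.

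Spots of controls and those with an outlier mark were dropped before averaging by probe. Arrays were scaled to their 75th percentile over 174 probes, those with a detected signal on all 8 arrays. Values under the median of the lowest scaled detected signals were raised to it (4.08 as log2) before taking log2. The probe of highest mean signal stood for a miRNA, and the 2 arrays of each WT RNA sample were averaged. WT, MT and control samples were fitted together with limma 3.58.1 in R 4.3.3 (lmFit, eBayes, Benjamini-Hochberg over 142 miRNAs, threshold 0.05), without a replicate block, which yielded the 95% intervals. Widened intervals used a Bonferroni correction over the 142. The fit was tested on simulated data. No spot was saturated. Precision was limited by the small number of RNA samples. Figures were drawn with matplotlib 3.10.9.

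The members, lists, families and alternatives were chosen with earlier results of these data known. miRNAs were named by a rule: the 3 smallest p, the member of highest signal and of largest difference in each family, the tested members of 3 lists, and the narrowest and widest intervals. Others named were chosen after their values were seen. Alternatives covered scaling, background correction, floor, filter, probes, outlier spots, technical arrays, the samples and terms of the fit, and leaving out each replicate. Leaving out both column 1 arrays was added after seeing the data.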

Additional observations from a re-analysis of the deposited data

How the results depend on the processing

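That 0 miRNAs passed the adjusted threshold held under all alternatives but 1. With 1 replicate left out it ranged from 0 to 1, where the call was miR-188-5p without MT replicate 2, and a lone sample was taken to vary as the other groups do. Leaving out a replicate, the count above 2-fold ranged from 0 to 2, the median size of the difference from 0.11 to 0.18, the median difference from -0.06 to -0.01, the median half-width from 0.43 to 0.55, the intervals within 2-fold from 110 to 131 and those within 1.5-fold from 18 (without MT replicate 2) to 78. Without WT replicate 1, WT replicate 2 and MT replicate 1 the last count was 30, 33 and 31. Leaving out either control sample gave the same values as fitting WT and MT alone. Scaled over all mouse probes, the median size of the difference was 0.30, the median difference 0.30, the median half-width 0.94, 26 intervals lay within 2-fold and 0 within 1.5-fold, although about the median of all miRNAs the median size was 0.12, against 0.11. With the total gene signal 24 of 166 miRNAs were above 2-fold, of which 1 was detected on all 8 arrays, the median half-width was 0.82 and 32 intervals lay within 1.5-fold. With normexp and its offset of 50 signal units, 136 intervals lay within 1.5-fold, with slide side as a term 33 and without both column 1 arrays 37. The side term is in effect the same fit as leaving out WT replicate 2. The MT samples lie on 1 side of the slide, the control samples on the other, and only the WT samples are split. Above 2-fold there was 1 miRNA without a filter (miR-875-3p), 1 with outlier spots kept (miR-128-3p), 1 with technical array 2 only and 1 with the side term (miR-188-5p in both). Without a filter 408 of 611 miRNAs lay at the floor in every sample and have no spread, so no intervals are given. The cause of the other moves was not tested. Of 1356 values of 57 other named miRNAs, 1243 moved by less than 1 SD between replicates, and of 719 family and list medians 667 did. Both counts include changes to the fit, most of which leave every difference as it was. Replicate numbers did not pair the samples: across miRNAs, same-numbered samples deviated from their group means with r of 0.02 between WT and MT, 0.39 between WT and control and -0.46 between MT and control. The replicate block gave 0 calls, changed no call and left 1 miRNA with an unadjusted p under 0.05.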
